A study of Homo sapiens with 24 samples.

Results

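Polyadenylated RNA of HEK293T cells that had received only the solvent DMSO was compared between 6 h and 2 h of exposure. These were the solvent controls of the experiment with OSMI-2, which inhibits the O-GlcNAc transferase OGT, and they made up 6 of the 23 libraries in the count tables, 3 at each time. HEK293T is an established human embryonic kidney line. All cells of the study got fresh medium 3 h before treatment, so hours in DMSO and hours since the medium change ran together and cannot be told apart. No group without solvent or compound, and no earlier time, was used here. RNA was isolated with Trizol or with a column kit, and the labels do not say which library had which, so extraction and time also cannot be told apart. The labels do not state that libraries came from separate cultures, so p-values measure the spread between these libraries, which may be technical. The libraries are named by time and column letter (a, b, c). Other libraries served for contrast: DMSO at 2 h and 6 h in a second experiment with TMG, an inhibitor of the O-GlcNAcase (3 libraries each), and OSMI-2 at 10 µM for 2 h (3 libraries) and 6 h (2 libraries). Libraries treated with TMG for 2 h and 6 h (3 libraries each) also appear in the figure that shows every library.

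Detained introns are introns left in otherwise spliced, polyadenylated transcripts that stay in the nucleus, where they can later be spliced or degraded. Many lie in genes of RNA processing, and OGT and the O-GlcNAcase gene, named MGEA5 in the tables, carry them as well. OGT attaches N-acetylglucosamine to proteins of the nucleus and cytoplasm and the O-GlcNAcase removes it, and splicing of the introns of both genes is known to respond to the O-GlcNAc level.

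The tables split 13236 gene groups into 164219 bins, of which 4769 in 3150 genes were marked as detained introns by the authors. Counts of all other bins were added up per gene, and each detained intron was kept apart under the name of its gene and bin. Values per library are CPM, read counts in proportion to library size, which was scaled by the trimmed mean of M values (TMM) over genes and introns together. CPM carry no length correction, so levels were not compared between genes. A feature was called higher or lower at an adjusted p under 0.05 in edgeR's quasi-likelihood test.

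Total counts were 43.2 to 51.7 M at 2 h and 41.7 to 54.1 M at 6 h. All 12 HEK293T markers examined were in the tables, with VIM at 23658 to 39058 counts, and 5 of them were called lower at 6 h, beside 14% of all genes. Of 12 markers of other cell types, 8 were not among the tables' genes. The 6 h library a stood apart: its log2 gene level rose by 0.2 per 10 points of transcript GC content, against 0.59 to 0.9 in the other 5 libraries. Within 2 h, library c also differed from a and b, with a GC slope of 0.9 against 0.66 and 0.59. The slope of log2 level on each doubling of transcript length ran from -0.46 to -0.36 at 2 h and from -0.26 to -0.03 at 6 h, without overlap. The OSMI-2 libraries had GC slopes of 0.65 to 0.87 and a like shift in length slopes, from -0.48 to -0.39 at 2 h to -0.18 in both libraries at 6 h. In the DMSO libraries of the TMG experiment the slopes had the opposite sign, -0.72 to -0.44 for GC and 0.13 to 0.3 for length, so the 2 experiments differed in both. The part of GC or length in the results was not tested.

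Detained introns held 0.239%, 0.276% and 0.272% of all counts in the 2 h libraries a, b and c. At 6 h they held 1.21%, 0.983% and 0.756%. Every 6 h library lay above every 2 h library. The means were 0.263% ± 0.0202 (SD, n = 3) and 0.984% ± 0.229 (SD, n = 3), a ratio of 3.75. The exact two-sided permutation test over libraries gave p = 0.1, the smallest that 3 against 3 can give.

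**Figure D1:**
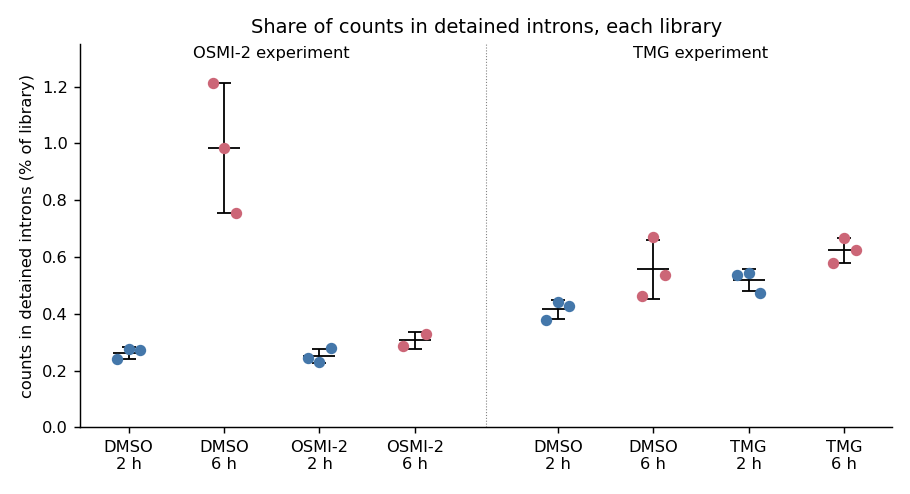
Percent of each library's counts that lie in detained introns, 1 point per library, with the group mean (bar) and SD (whiskers). The 3 DMSO 6 h libraries of the OSMI-2 experiment, at 0.756% to 1.21%, lie above every other library, of which the highest reached 0.669%.

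Nearly all detained introns were higher at 6 h. Of 4472 tested, 3958 rose (88.5%) and 80 fell (1.79%), or 90.3% in either direction, and the median log2 change was 1.7. All 6 h libraries lay above all 2 h libraries in 88% of introns and below them in 2.06%. Changes of at least 1 on the log2 scale were called upward in 3640 introns and downward in 43. Among genes with a tested intron, 2502 of 2972 had all of them called higher and 278 had none. As log2 of intron over gene counts, a measure that library scaling does not enter, 3954 of 4476 introns rose in limma (88.3%) and 57 fell (1.27%), 89.6% in all. The counts of the median intron went from 0.672% to 2.28% of its gene's counts. Scaled to introns alone, which sets their middle near no change, 11.5% were higher and 16.3% lower (27.7% in all).

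**Figure D2:**
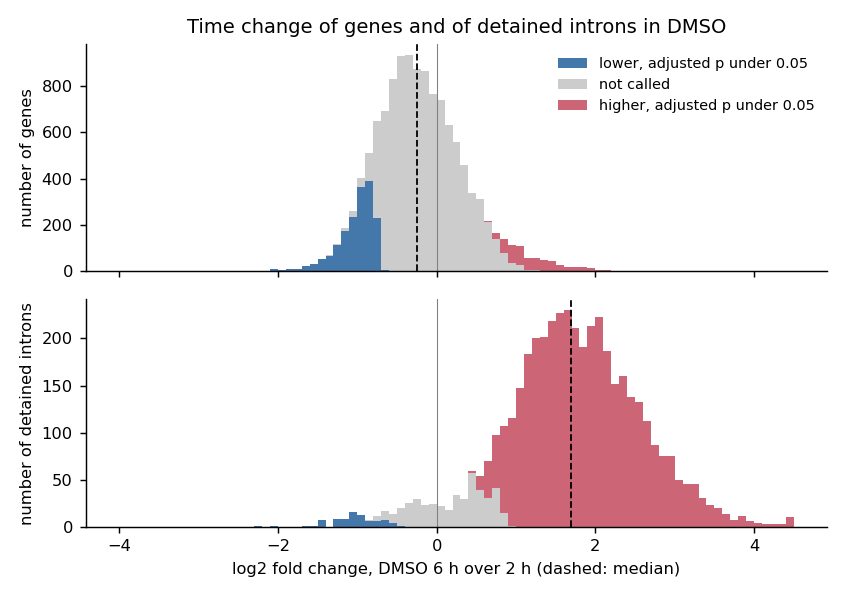
Number of genes (top) and detained introns (bottom) by log2 fold change between DMSO 6 h and 2 h, coloured by call, with the medians as dashed lines and values beyond the axis in the end bins. Introns centre on 1.7 and genes on -0.25.

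The largest rises that met the naming rule, a mean of at least 50 counts and no overlap between the times, were in introns that were nearly empty at 2 h. They met the minimum through their 6 h counts, so their changes are given as a description. MPHOSPH9_E006 (chr12:123641456-123645327, hg19), in the gene of an M-phase phosphoprotein, went from 6, 4 and 7 counts to 148, 103 and 78, a log2 change of 3.67. ZZZ3_E012, in the gene of a subunit of the ATAC histone acetyltransferase complex, went from 7, 5 and 6 counts to 148, 114 and 73. TLE4_E018, in the gene of a Groucho-type corepressor, went from 6, 10 and 16 counts to 243, 233 and 107. Low and high libraries were far apart in each of these introns. GLMN_E004, in the gene of glomulin, an inhibitor of cullin ligases, went from 1.21%, 3.40% and 3.09% to 18.8%, 29.9% and 21.9% of its gene's counts. Other large rises were in introns of TTLL4, a polyglutamylase (3.37), LARS, a leucyl-tRNA synthetase (3.35), CCDC18 (3.35), MYO6, a myosin motor (3.33), and CHSY1, a chondroitin sulfate synthase (3.28).

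TAF15, an RNA-binding protein of the FET family, fell as a gene while its detained intron rose. The gene went from 343, 351 and 330.2 CPM to 217, 169 and 176 CPM, a log2 change of -0.87 ± 0.26 (SE, adjusted p = 0.0201). Its intron TAF15_E009 (chr17:34152468-34160910, hg19) went from 129, 163 and 139 counts to 1917, 1684 and 1008. Both moved without overlap between the times. The intron went from 0.932%, 1.24% and 1.02% to 14.7%, 16.6% and 9.97% of the gene's counts, a relative log2 change of 3.66 ± 0.28 (SE, limma, adjusted p = 5.92e-06). CUL1, the scaffold of SCF ubiquitin ligases, had CUL1_E020 go from 0.545%, 1.14% and 0.305% to 5.31%, 8.94% and 7.89%, and MYO6_E029 went from 1.68%, 1.24% and 1.94% to 18.3%, 27.7% and 18.7%. PRMT2_E010 (3.62 ± 0.38) also ranked among the 5 largest relative rises, but the tables place the PRMT2 and S100B groups away from the usual position of these genes on chromosome 21, and which gene their bins measure is uncertain.

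The genes that write and erase O-GlcNAc both carried rising introns. OGT (chrX:70752913-70795750, hg19, plus strand) had 49, 64.2 and 39.2 CPM at 2 h and 260.4, 118 and 156 CPM at 6 h. That is a log2 change of 1.81 ± 0.29 (SE, adjusted p = 0.000109) without overlap, and 1.45 without the 6 h library a. Its intron bin OGT_E005 (chrX:70764486-70766193) went from 54, 84 and 65 counts to 1048, 439 and 448, and OGT_E007 (chrX:70766347-70767756) from 68, 106 and 82 counts to 1149, 545 and 526. The 6 h library a was the highest in the gene and in both bins. The bins rose by 2.65 ± 0.27 and 2.52 ± 0.26 on the log2 scale, and relative to OGT itself by 0.79 ± 0.27 and 0.68 ± 0.27 (SE, limma, adjusted p = 0.0149 and 0.029). Both relative changes lie below the median of 1.67 over all introns.

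MGEA5 had 93, 111 and 74.9 CPM at 2 h and 169, 101 and 132 CPM at 6 h, and these libraries overlapped (log2 change 0.53 ± 0.26, adjusted p = 0.151). Its intron MGEA5_E003 (chr10:103547281-103550652, hg19) went from 20, 15 and 23 counts to 244, 203 and 138, and MGEA5_E008 (chr10:103553756-103555130) from 33, 42 and 27 counts to 299, 168 and 149. Neither intron overlapped between the times, and relative to the gene they rose by 2.16 ± 0.34 and 1.42 ± 0.28 on the log2 scale. Of 8 genes of O-GlcNAc cycling and the hexosamine pathway, OGT rose and 2 fell, beside 4.59% and 14% of all genes (18.5% called in all). Those that fell were GNPNAT1 (-0.84) and UAP1 (-0.95), both enzymes of the pathway that makes the sugar donor. OGT alone of the list was called with TMM over genes alone.

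**Figure D3:**
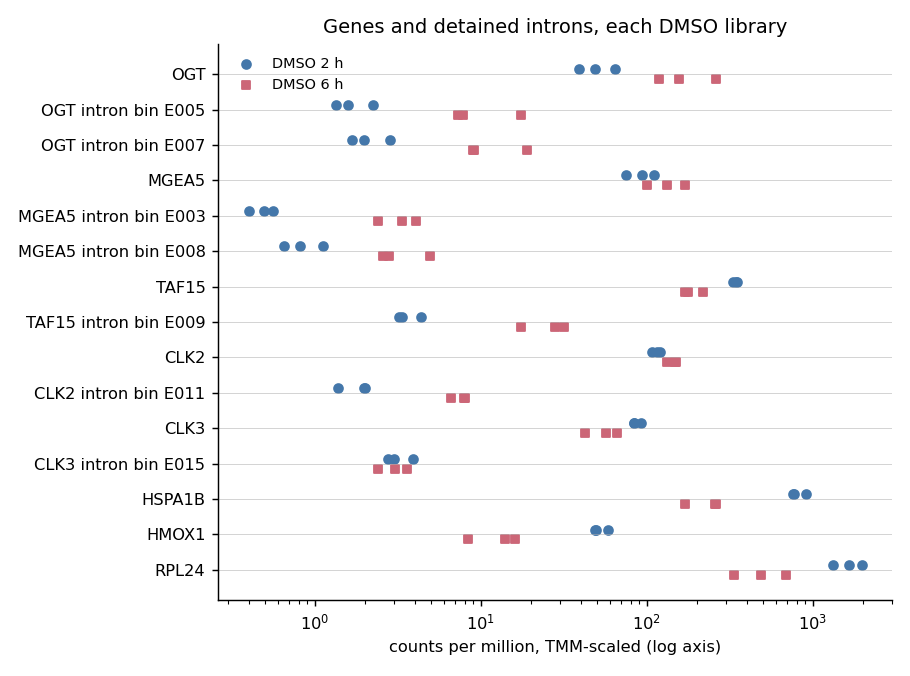
CPM on a log axis in each DMSO library for genes and detained introns described in the text, by time. OGT and its introns are higher in all 6 h libraries, MGEA5 overlaps while its introns do not, TAF15 and its intron part in opposite directions, and CLK3_E015 overlaps.

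Genes of the splicing machinery had introns that rose at about the share of all introns. Of 35 U2 snRNP and spliceosome core genes, 10 fell (beside 14% of all genes) and none rose, among them SF3B4 (-0.96), of the branch site complex, and U2AF1 (-0.86), which reads the 3′ splice site. None was called with TMM over genes alone, where 2.37% of all genes fell. Of their 26 introns 22 rose (beside 88.5% of all introns) and none fell. SNRNP70_E010, in the gene of a U1 snRNP protein, had 22.8, 21.9 and 31.8 CPM at 2 h and 69.5, 70.5 and 65.8 CPM at 6 h, without overlap. DHX8_E025, in the gene of a helicase that releases spliced RNA, overlapped, with 13.6, 13 and 12.5 CPM at 2 h and 8.58, 13.5 and 12.9 CPM at 6 h (log2 change -0.15, adjusted p = 0.497). Of 22 hnRNP genes 5 fell, with HNRNPD (-1.17) and HNRNPU (-1.14) the lowest, and all 7 of the list's introns rose.

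Introns of SR proteins and their kinases also rose at a share near that of all introns: 7 of 9 rose, beside 88.5% of all. Relative to their gene 8 of 9 rose, with a median of 1.72 beside 1.67 for all introns. CLK2 phosphorylates SR proteins, and CLK2_E011 had 1.39, 1.98 and 2.01 CPM at 2 h and 8.02, 7.87 and 6.57 CPM at 6 h, without overlap; CLK2_E013 rose by 2.06. SRPK1_E003, in the gene of another SR protein kinase, went from 5, 11 and 7 counts to 163, 83 and 61. SRSF11_E005 and SRSF11_E007 rose by 1.71 and 2.34. The kinase gene CLK3 held one intron that rose, CLK3_E005 (1.13), and one that overlapped, CLK3_E015, with 2.78, 3.02 and 3.88 CPM at 2 h and 2.41, 3.03 and 3.60 CPM at 6 h. CLK1_E011 was called higher (0.96) although its libraries overlapped, with 0.794, 0.935 and 1.50 CPM at 2 h and 3.35, 1.54 and 1.41 CPM at 6 h. SRSF7_E006 was high in the 6 h library a alone, with 2.68, 2.65 and 2.91 CPM at 2 h and 6.18, 2.45 and 2.30 CPM at 6 h (adjusted p = 0.128). As genes, SRSF2 fell (-0.89) and none of the 19 tested rose. Without the 6 h library a, 9 fell, beside 29% of all genes in that fit. With TMM over genes alone 0 fell, beside 2.37% of all genes. With both choices 2 fell and 1 rose, beside 14.7% and 15.6% of all genes.

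The 80 introns that fell lay in 76 genes, and in 69 of them every 6 h library was below every 2 h library. A fall relative to the gene was called for 40 of them. TSC1_E012 (chr9:135782758-135785957, hg19), in the gene of hamartin, which restrains mTORC1, went from 8.13%, 5.12% and 5.62% to 1.81%, 3.79% and 3.16% of the gene's counts, a relative log2 change of -1.14 ± 0.32 (SE, limma, adjusted p = 0.00506). PPARA_E012, in the gene of a lipid-sensing nuclear receptor, went from 29%, 20.7% and 17.2% to 8.25%, 10.6% and 11.6%. In both introns the groups did not overlap. BRD3_E009, in the gene of a BET bromodomain protein, and ANKS6_E013, in that of a ciliary protein, changed by -0.79 ± 0.3 and -0.73 ± 0.26 relative to their genes. LONP1_E011 (a mitochondrial protease), TMEFF1_E005, CTD-2587H24.4+TNNI3_E005 and GLA_E007 (a lysosomal galactosidase) changed by -1.3, -1.1, -1.07 and -1.03, and their relative changes did not pass the test.

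The introns that fell were mostly ones already well represented at 2 h. Ranked by share of the gene's counts at 2 h, the 20% of introns with the highest share (above 2.06%) had 689 rises and 51 falls among 895, with a median log2 change of 1.42. The 20% with the lowest share (up to 0.228%) had 834 rises and 3 falls, with a median of 1.91. The 2 h values enter both the ranking and the change, so this is a description only. By length, the median was 1.51 in 729 introns under 500 bases and 2.01 in 1504 of 3000 bases or more. By place, 129 of 174 introns in the first 20% of the gene rose and 15 fell, against 2089 and 16 of 2302 in the last 20%.

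Introns rose in genes that fell as well as in genes that rose. In genes called lower, 175 of 236 introns rose, beside 88.5% of all introns, with a median log2 change of 1.09 and a median relative change of 1.98. In genes called higher, 265 of 276 rose, with medians of 2.09 and 0.9. The gene's change enters both the class and the relative change, so the relative medians are a description only. Across 4472 introns, which share libraries, Spearman's rho between the changes of intron and gene was 0.35 and Pearson's r 0.32. Of the 2972 host genes 158 rose and 193 fell, beside 4.59% and 14% of all genes.

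Few introns of cytosolic ribosomal protein genes rose. Of 7 tested, 2 rose and 1 fell (beside 88.5% and 1.79% of all introns), with a median of -0.09 beside 1.7 for all introns; the difference between list and others was not tested. RPL3_E008 had 15.6, 17 and 15.5 CPM at 2 h and 18.1, 22.4 and 25.3 CPM at 6 h, and RPL11_E006 had 3.65, 3.61 and 3.76 CPM at 2 h and 9.03, 6.20 and 7.18 CPM at 6 h. RPL13_E004 fell, with 14, 13.1 and 17.7 CPM at 2 h and 6.24, 10.1 and 10.5 CPM at 6 h. Neither the rises nor the fall overlapped. Relative to their genes, 6 of 7 introns rose, with a median of 1.06.

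The other time courses moved less. Over the 3499 introns with a value in each, the median log2 change from 2 h to 6 h was 1.6 in these DMSO libraries, 0.39 in DMSO of the TMG experiment and 0.2 in OSMI-2. In DMSO of the TMG experiment 21% of introns rose and 0.904% fell (21.9% in all), and relative to their gene 14.8% and 0.589% (15.4%). With OSMI-2 2.57% rose and 0.318% fell (2.89%), and 0.0277% rose relative to their gene. Differences between courses were tested as interactions in edgeR. The change was more positive here than in DMSO of the TMG experiment for 50.3% of introns and more negative for 1.51% (51.8% in all), with a median difference of 1.13. Against OSMI-2 the figures were 65.7% and 0.256% (65.9%), with a median difference of 1.49. Of 3985 introns tested in both DMSO courses, 3572 rose here and 837 rose there. In both courses 792 rose, 22.2% of those that rose here and 94.6% of those that rose there. These shares stand beside 21% of all introns that rose there and 88.5% that rose here, so 94.6% lies near the share of all introns.

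**Figure D4:**
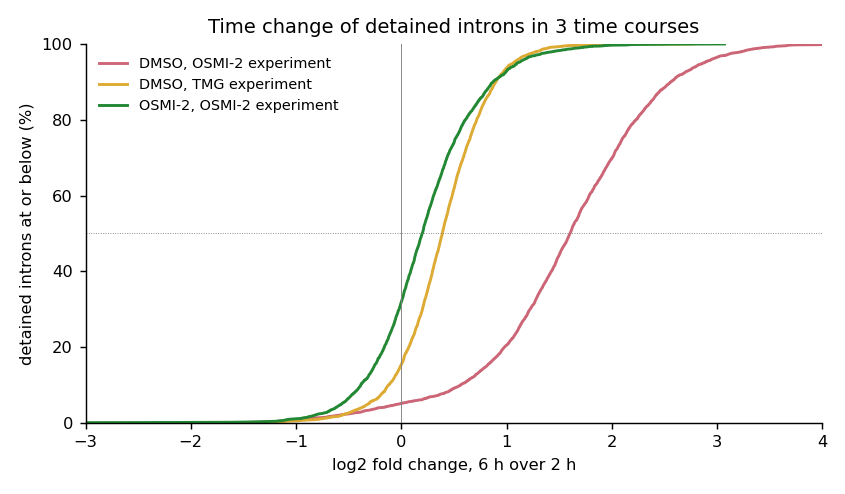
Cumulative percent of 3499 detained introns by log2 fold change from 2 h to 6 h, 1 line per time course. The median is 1.6 for DMSO in the OSMI-2 experiment, 0.39 for DMSO in the TMG experiment and 0.2 for OSMI-2.

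The introns of OGT showed this contrast. OGT_E005 changed by 2.65 here, by -0.3 in DMSO of the TMG experiment (adjusted p = 0.153) and by 0.03 in OSMI-2 libraries, with differences of 2.79 (adjusted p = 6.41e-07) and 2.71 (adjusted p = 8.59e-05). As a gene, OGT changed by 1.81, 0.6 and -0.58 in the 3 courses, and both differences passed the test, at 1.06 (adjusted p = 0.0434) and 2.46 (adjusted p = 0.0329). TAF15_E009 changed by 2.82, 0.81 and 0.85. TLE4_E018 and LARS_E020 also rose in DMSO of the TMG experiment, by 1.32 and 0.92.

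Genes outside their detained introns changed less and in both directions. Of 12343 tested, 567 rose (4.59%) and 1722 fell (14%), with a median log2 change of -0.25. The balance depended on the scale. With TMM over genes alone the median was 0.04, and 6.78% rose and 2.37% fell (9.15% in all). Library totals gave a median of 0.32, with 13.2% and 0.826% (14.1%), and median-of-ratios size factors -0.33, with 4.44% and 19.7% (24.2%). Removing a trend on GC in each library also sets the middle of the genes near no change (median -0.02). It gave 20.1% and 19.6% (39.7%), and constitutive exon bins alone gave 4.34% and 10.4% (14.8%). Without the 6 h library a, 8.24% rose and 29% fell (37.2%), and with TMM over genes alone as well 15.6% and 14.7% (30.3%). Leaving out the 2 h libraries a, b or c gave 519, 1052 and 910 called genes. Gene groups are therefore also given by their distance from the median of all genes.

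Cytosolic ribosomal protein genes were lower at 6 h. Of 79 tested, 61 fell (beside 14% of all genes) and none rose, with a median log2 change of -1.03. They held 20.9%, 18.9% and 19.6% of counts at 2 h and 12.8%, 14.4% and 15.6% at 6 h, without overlap. RPL24, of the large subunit, went from 1969, 1659.9 and 1312 CPM to 487, 333 and 691 CPM, a log2 change of -1.71 ± 0.31 (SE, adjusted p = 0.000542). RPS3A, of the small subunit, went from 838, 612 and 343 CPM to 223, 119.9 and 169 CPM. Times did not overlap in these genes, but did in RPL9, which went from 1898, 1864 and 344 CPM to 385, 195 and 739 CPM. RPL22L1, a paralog of RPL22, went from 53.1, 40.0 and 27 CPM to 13.2, 6.36 and 9.69 CPM, without overlap. The list's median lay 0.77 below that of all genes, and 0.78, 0.77 and 0.79 below with TMM over genes alone, median-of-ratios factors and library totals, where 20, 65 and 10 fell, beside 2.37%, 19.7% and 0.826% of all genes. Without the 6 h library a, 66 fell (beside 29% of all genes) and the median lay 0.6 below. In bulk RNA, a change in all cells and a change in part of them cannot be told apart. CPM are relative, so a fall here and a rise of other RNA cannot be told apart either.

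Transcripts of these genes typically begin with a C and a run of pyrimidines, the 5′ terminal oligopyrimidine tract through which mTORC1 controls their translation. On the sense strand, a C followed by at least 5 C or T, starting within 5 bases of the annotated start, was found in 45 of 64 promoters matched by symbol in RefSeq (GRCh38.p14), or 70.3%, against 11% of all 27305 promoters. The share was 6.78% of 59 promoters of mitochondrial ribosomal protein genes. To show the tract, 20 bases before and 20 after the start follow for 3 of the genes described, with the tract in capitals, from chr3:170870176-170870215 (minus strand), chr4:151099608-151099647 (plus strand) and chr3:101686699-101686738 (minus strand).
RPL22L1: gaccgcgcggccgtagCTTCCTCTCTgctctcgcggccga
RPS3A: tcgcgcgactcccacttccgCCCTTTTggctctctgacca
RPL24: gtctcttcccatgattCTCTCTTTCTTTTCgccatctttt
A match is a description of these letters only.

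Genes of mitochondrial translation and respiration were lower too. Of 67 mitochondrial ribosomal protein genes 36 fell (beside 14% of all genes) and none rose, with a median 0.55 below that of all genes, and of 69 respiratory chain subunit genes 33 fell and none rose, with a median 0.49 below. MRPS35, of the mitochondrial small subunit, went from 43.7, 42.1 and 40.4 CPM to 21.5, 12 and 11.1 CPM. NDUFB5, of complex I, went from 33.1, 25.3 and 17.7 CPM to 8.98, 6.21 and 7.22 CPM, and ATP5D, of the ATP synthase, changed by -1.29. In these 3 genes the times did not overlap. With TMM over genes alone 8 and 4 of the lists fell, beside 2.37% of all genes, and with library totals 2 and 0, beside 0.826%. In these 2 fits both medians lay at least 0.49 below all genes. Without the 6 h library a, 46 and 46 fell, beside 29% of all genes, and the medians lay 0.46 and 0.35 below.

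Transcript length ran beside these results. Length is that of the longest annotated transcript of each gene, which need not be the one counted. The medians were 1857, 1706 and 1407 bases for cytosolic ribosomal, mitochondrial ribosomal and respiratory genes, against 3752 for all genes. In the 20% of genes with the shortest transcripts 48 genes rose and 714 fell (median -0.59). In the 20% with the longest 186 rose and 93 fell (median 0.06). In DMSO of the TMG experiment the same shortest and longest classes had medians of -0.15 and 0.05. The part of length in the list results was not tested.

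**Figure D5:**
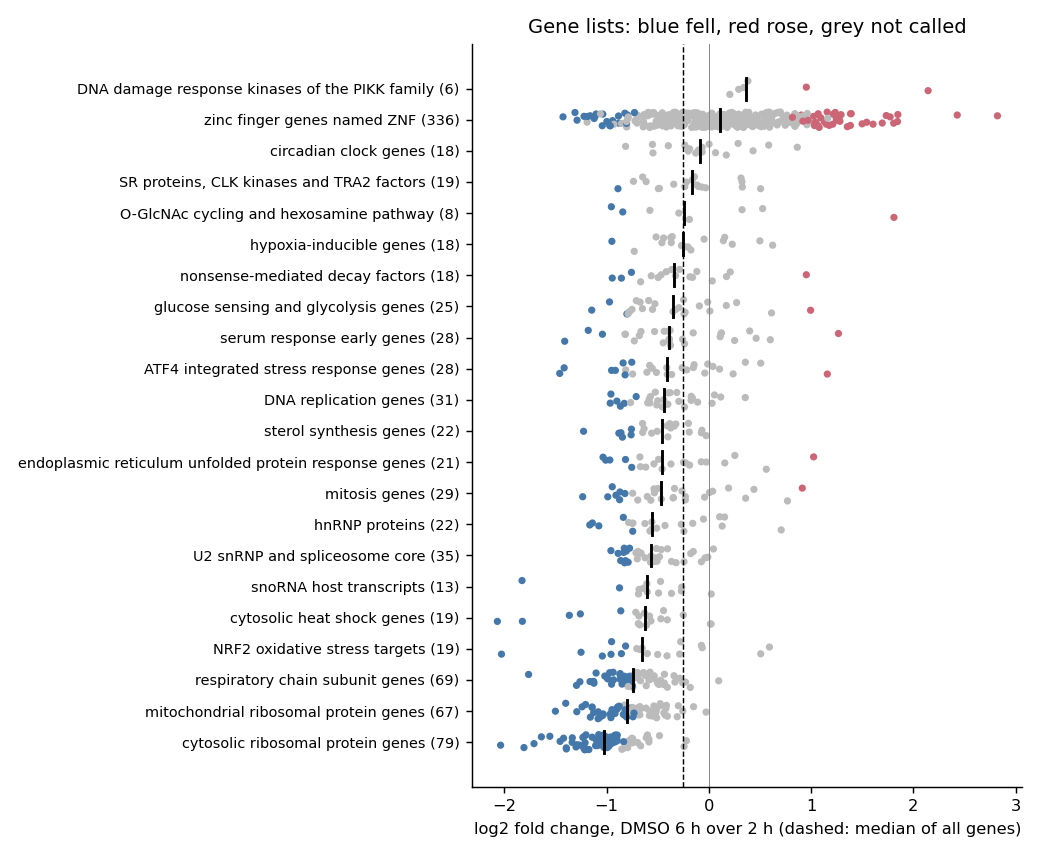
Log2 fold change of each tested gene between DMSO 6 h and 2 h by gene list; black bars are list medians and the dashed line is the median of all genes, -0.25. Cytosolic ribosomal protein genes have a median of -1.03 and ZNF genes one of 0.11.

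Genes of the cytosolic heat shock response, driven by HSF1, fell in part: 5 of 19 fell (beside 14% of all genes) and none rose, with a median 0.38 below that of all genes. HSPA1B, an inducible HSP70, went from 910.3, 764 and 760.1 CPM to 169, 257 and 261 CPM, a log2 change of -1.82 ± 0.28 (SE, adjusted p = 8.95e-05). HSPB1, a small heat shock protein, went from 76.1, 54.6 and 80.7 CPM to 16.3, 31.3 and 34.5 CPM. Neither overlapped, whereas HSPA8, the constitutive HSP70, did, going from 2822, 3066 and 1270.5 CPM to 1199, 509.6 and 1286 CPM. HSPA1A is nearly identical to HSPA1B, so the counting could have split their reads; it changed by -2.07 from under 1 CPM. HSPA1B also fell in DMSO of the TMG experiment, by 1.5. With TMM over genes alone 3 of the list fell, and without the 6 h library a 12, beside 2.37% and 29% of all genes.

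HSF1 binds inverted repeats of GAA and TTC. The letters GAANNTTC or TTCNNGAA, each its own reverse complement, stood in the 250 bases before the start in 6 of 18 matched promoters of the list (33.3%), against 11.7% of all promoters. The nearly identical HSPA1A and HSPA1B both count among the 6. HSPA1A and HSPA8, also called lower, had matches that are not shown. The windows of HSPB1, chr7:76302423-76302672 (plus strand), and HSPA1B, chr6:31827488-31827737 (plus strand), are shown from RefSeq (GRCh38.p14) as examples, with the match in capitals.
HSPA1B: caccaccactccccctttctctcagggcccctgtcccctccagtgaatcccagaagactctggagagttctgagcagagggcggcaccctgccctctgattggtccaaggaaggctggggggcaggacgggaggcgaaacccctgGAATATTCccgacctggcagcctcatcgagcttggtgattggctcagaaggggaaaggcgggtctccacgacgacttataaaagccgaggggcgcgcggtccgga
HSPB1: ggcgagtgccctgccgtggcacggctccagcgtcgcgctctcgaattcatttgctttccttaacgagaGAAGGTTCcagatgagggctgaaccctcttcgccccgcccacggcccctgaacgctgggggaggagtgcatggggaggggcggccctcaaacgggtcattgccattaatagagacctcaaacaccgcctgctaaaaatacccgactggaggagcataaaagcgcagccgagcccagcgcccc
A match describes letters, not binding.

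Of 19 targets of NRF2, which drives antioxidant genes, 7 fell (beside 14% of all genes) and none rose, with a median 0.4 below that of all genes (0.18 below without the 6 h library a). HMOX1, heme oxygenase 1, went from 49.6, 48.5 and 58.4 CPM to 8.33, 14 and 16 CPM, without overlap, a log2 change of -2.03 ± 0.28 (SE, adjusted p = 4.84e-05). NQO1, a quinone reductase, FTH1, the ferritin heavy chain, and ME1, malic enzyme, changed by -1.25, -1.04 and -0.96. With TMM over genes alone 1 member was called lower, HMOX1 (-1.75, adjusted p = 0.00235), and 1 higher.

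Sterol synthesis genes, under SREBP2, parted the DMSO time courses. Here 6 of 22 fell (beside 14% of all genes) and none rose; in DMSO of the TMG experiment 17 rose and 2 fell, beside 16.3% and 29.6% of all genes there (45.9% in all). MSMO1, a sterol methyl oxidase, went from 24, 19.9 and 12 CPM to 10.8, 6.13 and 6.94 CPM here, without overlap, and rose by 0.58 there (difference -1.95, adjusted p = 0.00233). MVD, mevalonate diphosphate decarboxylase, went from 176, 135 and 225 CPM to 67.9, 110.1 and 118 CPM here and rose by 0.54 there. The difference was called for 11 of the list, each more negative here, beside 9.61% of all genes. No sterol gene was called in these libraries with TMM over genes alone.

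Other stress and metabolic lists had falls at shares above and below the 14% of all genes. Of 28 ATF4 targets 7 fell and 1 rose: PSAT1 (-1.42) and PHGDH (-0.95) of serine synthesis were lower, and the lipoprotein receptor VLDLR (1.16) higher. Of 21 genes of the unfolded protein response 5 fell, among them HSPA5, the chaperone BiP, which went from 496, 498 and 433 CPM to 300.0, 188 and 208 CPM, and ERN1, the sensor IRE1, rose by 1.02. Of 25 glucose sensing and glycolysis genes 3 fell, and TXNIP, which restrains glucose uptake, rose from 2.90, 2.91 and 2.26 CPM to 5.56, 4.14 and 6.38 CPM, without overlap, while it fell by 1.43 in DMSO of the TMG experiment. Of 18 hypoxia genes BNIP3L alone was called (-0.95), and of 18 clock genes none was. With TMM over genes alone the ATF4, unfolded protein response, glucose and hypoxia lists had 1, 0, 0 and 0 members lower, where 2.37% of all genes fell.

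Serum response and cell cycle genes had some members called lower, where 14% of all genes fell and 4.59% rose. Of 28 serum response genes, the inhibitors of differentiation ID1, ID2 and ID3 fell (-1.41, -1.04 and -1.18) and IER2 rose (1.27). ID1 went from 12.4, 10.7 and 12.9 CPM to 3.30, 4.69 and 5.55 CPM, without overlap, and fell by 1.17 in DMSO of the TMG experiment. Of 31 replication genes 6 fell, PCNA (-0.96) and the licensing factor CDT1 (-0.97) among them. Of 29 mitosis genes 7 fell, with cyclin B1 (CCNB1) at -1.23, and without the 6 h library a 19 fell, beside 29% of all genes in that fit. The kinetochore motor CENPE was called higher, going from 9.55, 13 and 14.1 CPM to 38.6, 15.1 and 15.4 CPM, and without the 6 h library a it changed by 0.34 (adjusted p = 0.176). Of 18 nonsense-mediated decay factors MAGOHB, RBM8A and RNPS1 fell (-0.95, -0.86 and -0.76) and SMG1 rose. Of 13 snoRNA host transcripts SNHG5 (-1.83) and SNHG16 (-0.87) fell. With TMM over genes alone 2.37% of all genes fell. In that fit the serum response, replication, mitosis, decay and snoRNA host lists had 2, 0, 0, 0 and 1 members lower. Without the 6 h library a as well, 15 mitosis genes fell, beside 14.7% of all genes.

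Zinc finger genes named ZNF lay above other genes. Of 336 tested, 43 rose and 21 fell, beside 4.59% and 14% of all genes, with a median 0.36 above that of all genes and 0.21 above it without the 6 h library a. ZNF780B went from 0.397, 0.695 and 0.534 CPM to 5.79, 2.95 and 2.77 CPM, ZNF518A from 0.918, 1.31 and 1.53 CPM to 9.61, 5.88 and 4.77 CPM and ZNF587 from 1.44, 1.84 and 1.24 CPM to 7.47, 4.94 and 3.86 CPM. None of these overlapped, which the naming rule required of ZNF780B and ZNF518A. Among those that fell were ZNF423 (-1.43) and ZNF593 (-1.29). Of the list's 44 introns 42 rose, beside 88.5% of all introns.

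ATM, the kinase that responds to DNA double-strand breaks, was among the 10 largest rises. It went from 5.28, 7.83 and 5.19 CPM to 42.3, 18.3 and 20.3 CPM, without overlap, which the naming rule required. The log2 change of ATM was 2.14 ± 0.32 (SE, adjusted p = 7.47e-05), and 1.68 without the 6 h library a. It changed by 0.32 in DMSO of the TMG experiment (difference 1.67, adjusted p = 0.0113). With OSMI-2 it changed by 0.66, and the difference of 1.56 did not pass the test (adjusted p = 0.148). SMG1, a kinase of the same PIKK family that marks RNA for decay, rose from 25.5, 37.7 and 42.1 CPM to 96.2, 50.1 and 57.5 CPM. In both, the 6 h library a was the highest. The other family members, a list added after ATM was seen, were not called: MTOR (0.29), PRKDC (0.38), TRRAP (0.34) and ATR (0.2). The median transcript length of the family was 12912 bases, against 3752 for all genes, and the part of length was not tested.

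The other large rises were in genes of varied function. SEC31B, of the coat of vesicles that leave the endoplasmic reticulum, went from 6.10, 5.58 and 7.50 CPM to 39.5, 29.8 and 30.5 CPM and changed by -0.03 in DMSO of the TMG experiment. EDA2R, a receptor of the tumor necrosis factor family, went from 1.64, 1.20 and 1.31 CPM to 6.86, 4.74 and 6.23 CPM. CATSPERG, a sperm calcium channel subunit, went from 0.496, 0.374 and 0.364 CPM to 2.14, 2.87 and 2.14 CPM. In these 3 the times were far apart. AC159540.1, WDR52 and SGK494 rose by 2.99, 2.16 and 2.05, and ARHGAP11B, a partial copy of ARHGAP11A with which it could share reads, by 2.02.

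Among the largest falls, several recurred in the other DMSO course. RELB, a subunit of NF-kB, went from 11.3, 8.79 and 12.5 CPM to 1.58, 2.90 and 2.82 CPM and fell by 2.24 there. EMILIN2, of the extracellular matrix, went from 9.08, 12.3 and 9.85 CPM to 2.03, 3.35 and 2.38 CPM and fell by 2.96 there. ARPC5, of the actin-nucleating Arp2/3 complex, went from 51.3, 45 and 24 CPM to 15.5, 7.54 and 10.7 CPM, but changed by 0.14 there (adjusted p = 0.11). In these 3 genes the times did not overlap here, which the naming rule required. CTXN1 (-2.44), QPCT, a glutaminyl cyclase (-2.0), HBQ1, a globin (-1.94), and PRR7 (-1.92) were the others, beside HMOX1, RPL22L1 and SNHG5. Over all genes, every 6 h library lay below every 2 h library in 29.2% and above in 10.5%.

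Gene calls were partly shared with DMSO of the TMG experiment. Of 12124 genes tested in both, 1694 fell here and 3627 there, and 551 rose here and 1993 there. In both courses 906 fell, 53.5% of those that fell here and 25% of those that fell there. These stand beside 29.6% of all genes that fell there and 14% that fell here. In both 169 rose, 30.7% and 8.48%, beside 16.3% of all genes that rose there and 4.59% that rose here. The difference between the courses was called for 13.2% of genes, more positive here for 3.58%. Among cytosolic ribosomal protein genes 53 of 79 were more negative here, beside 9.61% of all genes, and none more positive. Against the OSMI-2 course the difference was called for none of 80; there the list's median log2 change was -0.66 with no member called. In that course the medians of mitochondrial ribosomal and respiratory genes were -0.54 and -0.51, beside -0.05 for all genes. Against OSMI-2 libraries, all of the same experiment, the difference was called for 14 genes (0.111%): 12 more positive in DMSO (0.095%), among them OGT, CATSPERG, EDA2R, SEC31B and SGK494, and 2 more negative (0.0158%), AMBN and CTXN1. These counts moved with single libraries: leaving out each library in turn gave 493 to 7126 genes against DMSO of the TMG experiment and 0 to 1608 against OSMI-2, the highest of each without the DMSO 6 h library a. The OSMI-2 libraries alone gave 0 of 12492 genes changed in edgeR, although 3621 had an unadjusted p under 0.05 and DESeq2 called 1918.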

How the data were processed

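Polyadenylated RNA was sequenced from stranded libraries, per the labels. Reads were aligned with STAR to hg19, per the submitters' processing notes. The authors deposited raw read counts per exon or intron bin in tables whose headers carry DEXSeq result columns, per the file headers; the counting program, annotation and use of strand are not given in the sources used here. The 2 h and 6 h counts stood in separate tables. Detained introns are those marked by the authors.

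Bins were summed per gene without detained introns. Features were filtered with filterByExpr, scaled by TMM and tested in edgeR 4.0.16 (quasi-likelihood, Benjamini-Hochberg) in R 4.3.3. Intron over gene counts, with a pseudocount of 1 and a mean of at least 10 counts, were tested in limma 3.58.1. DESeq2 1.42.0 was an alternative. The scripts were tested on simulated data. Overlapping and antisense genes could share reads. Transcript length and GC content are those of the longest GENCODE transcript per gene symbol, which can differ from the transcripts present in these cells.

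Named are the 10 largest rises and 10 largest falls (introns: 10 and 6) among called features that averaged 50 or more counts and did not overlap between times, the 5 largest relative changes each way, OGT and MGEA5 with their introns, SR and CLK introns, and up to 4 called members of each list in each direction. TAF15 as a gene, the introns of SNRNP70, DHX8 and ribosomal protein genes, and the PIKK list were chosen after their values were seen. Members and lists were chosen with earlier results of these data known. Of OSMI-2 at 6 h, 2 libraries were used here. Some introns that the choice of named features covers are not reported here.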

Additional observations from a re-analysis of the deposited data

Results flagged for a closer look

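The change from 2 h to 6 h differed between these DMSO libraries and other time courses by interaction terms in edgeR. Against DMSO of the TMG experiment the difference was called for 1659 genes and 2406 introns. Against OSMI-2 libraries it was called for 14 genes and 3095 introns.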

How the results depend on the processing

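Counts of called genes moved with several choices. The count between the times was 2289 as reported, 1129 with TMM over genes alone, 6133 in a fit of all libraries, 1138 at an absolute log2 change of at least 1 and 4506 with a GC trend removed, and, by choices made after seeing the data, 1475 over constitutive exon bins. Leaving out each library in turn gave 519 to 4589 genes. For introns, TMM over introns alone gave 1213 calls instead of 4038, and leaving out libraries 3824 to 4128. Relative to the gene, a mean of at least 50 counts left 1607 calls, since fewer introns were tested, and leaving out libraries gave 3629 to 4015. Genes whose change differed from DMSO of the TMG experiment numbered 493 to 7126 when libraries were left out. Against OSMI-2 they numbered 0 to 1608, and 180 by DESeq2. The direction turned for CLK3_E015 with TMM over genes alone (0.18) and library totals (0.44), and without a library it ran from -0.19 to 0.0958. With TMM over introns alone it turned for CLK1_E011 (-0.705), CLK3_E005 (-0.503) and SRSF7_E006 (-1.28), and SRSF7_E006 ran from -0.19 to 0.71 without a library. The causes were not tested. Of the named features, 49 of 129 were no longer called with TMM over genes alone, 67 of 129 with library totals and 55 of 139 without the 2 h library a. The column letters did not pair the libraries: deviations of same-letter libraries correlated at 0.18, -0.49 and 0.22, and not every library correlated best with its own letter. With the letter as a replicate block 2039 genes, 4007 introns and 3998 relative introns were called. A GC correction of introns was not run.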
